A study of Homo sapiens with 8 samples.

Results

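The metallothioneins and the zinc response were followed through 9 genes: MT1E, MT1F, MT1G, MT1H, MT1M, MT1X, MT2A, MTF1 and SLC30A1. Every probe set that names 1 of these genes and no other was taken, which gave 17 probe sets of the 41091 with a single gene symbol, and 9 genes of 19775. No probe set naming several genes named a member. The list was selected on the hairpin and line differences of these same arrays, whose results were known when it was drawn up, so the members' levels and differences are given as a description, with standard errors and no p-value. Where members are counted by the call rule for all genes, the share of all genes called stands beside the count and nothing is read from it. Tests are given for the other genes of zinc, copper and stress handling. Those lists were also drawn up with earlier results of these data known. Most genes named from them are those called with the largest differences, so their p-values carry that selection and are no independent evidence.

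RNA was measured on 8 Affymetrix arrays, 1 per sample, in 4 groups of 2. T47D is an oestrogen receptor positive, luminal breast cancer line, and MDA-MB-231 is a triple-negative, mesenchymal-like one. Each line expressed a control short hairpin RNA (shCtrl) or one that targets XBP1 (shXBP1); XBP1 encodes the spliced factor that drives part of the response to unfolded proteins. All 4 groups, controls included, had been infected with lentivirus, selected with puromycin, and kept for 24 h at 0.1% oxygen in glucose-free medium before RNA was taken. The values therefore compare hairpins within stressed cells, and the effect of hypoxia or glucose loss itself was not analysed here. The labels name 1 hairpin against XBP1 and call the replicates biological, without saying whether they were separate infections or cultures, so a test here covers the spread of these arrays alone.

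Metallothioneins are small, cysteine-rich proteins that bind zinc and copper and buffer their free level. MTF1 is the zinc-sensing transcription factor that binds metal response elements in the promoters of the metallothionein genes and of SLC30A1, which encodes the zinc exporter of the plasma membrane. Excess zinc, cadmium, glucocorticoids, hypoxia and oxidants are known to raise metallothionein RNA.

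The 7 metallothionein genes neighbour each other on chromosome 16, and their messages are closely alike. Of their 11 probe sets, 9 carry the array's x_at suffix, which marks probes that can also match other sequences. Signal on MT1E, MT1F, MT1G, MT1H, MT1X and MT2A can therefore come in part from other copies, and their agreement is not agreement of independent measurements. The levels of different probe sets cannot be set against each other. MTF1 and SLC30A1 lie on chromosome 1.

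The promoter windows of 5 of the 9 members were listed in the RefSeq table (GRCh38.p14), and 4 are printed because they show the elements through which MTF1 acts. Each is the 250 bases before the annotated start, 5′ to 3′ on the gene's strand, with matches to the metal response element core (TGCACNC or TGCGCNC, on either strand) in capitals. The windows are MT2A at chr16:56608334-56608583 on the plus strand, MT1H at chr16:56669564-56669813 on the plus strand, MT1X at chr16:56682220-56682469 on the plus strand, and SLC30A1 at chr1:211579162-211579411 on the minus strand.
MT2A: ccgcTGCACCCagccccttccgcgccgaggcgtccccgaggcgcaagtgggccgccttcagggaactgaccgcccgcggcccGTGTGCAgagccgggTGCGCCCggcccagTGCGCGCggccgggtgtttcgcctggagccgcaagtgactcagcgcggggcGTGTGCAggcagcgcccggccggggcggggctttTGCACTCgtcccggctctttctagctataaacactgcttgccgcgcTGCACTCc
MT1H: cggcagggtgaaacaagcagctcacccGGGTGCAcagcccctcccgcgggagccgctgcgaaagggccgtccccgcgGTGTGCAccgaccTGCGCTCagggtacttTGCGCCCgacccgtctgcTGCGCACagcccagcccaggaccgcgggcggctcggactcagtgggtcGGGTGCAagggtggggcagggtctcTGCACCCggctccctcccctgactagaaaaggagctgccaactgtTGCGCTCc
MT1X: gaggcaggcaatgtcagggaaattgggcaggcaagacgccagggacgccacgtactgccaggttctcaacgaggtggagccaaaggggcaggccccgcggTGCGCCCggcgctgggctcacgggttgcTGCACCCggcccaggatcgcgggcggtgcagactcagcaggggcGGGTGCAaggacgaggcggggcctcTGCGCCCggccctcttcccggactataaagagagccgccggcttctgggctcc
SLC30A1: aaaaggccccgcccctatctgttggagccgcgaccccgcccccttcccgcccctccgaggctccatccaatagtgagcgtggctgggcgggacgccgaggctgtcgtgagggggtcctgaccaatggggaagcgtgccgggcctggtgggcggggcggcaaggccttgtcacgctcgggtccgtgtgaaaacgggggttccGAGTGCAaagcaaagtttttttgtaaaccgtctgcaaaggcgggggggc
MT1H held 8 matches, MT2A 7 and MT1X 4. SLC30A1 held 1, GAGTGCA, beginning 49 bases before the start, and the MTF1 window held 0. Of 35097 RefSeq promoter windows of 250 bases, 24.8% held at least 1 match and 0.368% held at least 4, a cut-off chosen after the counts were seen. The hypoxia response element core (ACGTG or GCGTG) had 3 matches in SLC30A1, 2 in MTF1, 1 each in MT2A and MT1X and 0 in MT1H, and 43.2% of all windows held at least 1. The match in MT2A overlaps a metal response element match, and 1 of those in SLC30A1 overlaps a match to the antioxidant response element core (TGACNNNGC). That core had 1 match each in MT2A, MT1X and SLC30A1, against 10.9% of windows with at least 1. The XBP1 element TGACGTGG had 0 matches in these 5 windows, and 0.613% of windows held it. These are letter matches in a short window and not measured binding.

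XBP1 itself, the target of the hairpin, read 12.41 and 12.56 (log2) in T47D with shCtrl and 7.52 and 7.16 with shXBP1. In MDA-MB-231 it read 10.83 and 10.69 with shCtrl and 7.13 and 6.69 with shXBP1. The lines matched their labels: the luminal markers ESR1, PGR, GATA3 and CDH1 lay below the median of all probe sets (5.96) in MDA-MB-231, and 4 of 6 mesenchymal markers lay below it in T47D. KRT8 and KRT18, also on the luminal list of 7, were bright in both lines. FOXA1, also on that list, lay above the median in MDA-MB-231, with means of 7.04 (shCtrl) and 6.85 (shXBP1). In T47D its means were 10.48 and 10.60. The 4 leukocyte markers measured had group means of 3.88 to 6.20, with 3 of 4 below the median in each group. The 3′ minus 5′ signal of ACTB, a measure of RNA integrity, ran from 0.89 to 1.3. It was 1.3 and 1.21 in MDA-MB-231 shCtrl against 0.89 and 1.10 in MDA-MB-231 shXBP1. In T47D it was 1.03 and 0.97 with shCtrl and 0.97 and 1.26 with shXBP1. The same measure of GAPDH was 0.27 and 0.33, then 0.30 and 0.32 in MDA-MB-231, and 0.33 and 0.24, then 0.28 and 0.16 in T47D. The part of RNA integrity in the differences between hairpins or replicates was not tested in either line.

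In T47D the metallothionein signal was lower with shXBP1 on all 11 probe sets, with log2 differences of -0.83 to -0.22 (median -0.63). In MDA-MB-231 it was higher on 9 of 11, with a median log2 difference of 0.18 and a range of -0.06 to 0.77. MTF1 was higher with shXBP1 in both lines on all 3 of its probe sets. SLC30A1 differed between its probe sets. These are levels in bulk RNA, in which fewer cells with a message and less message per cell cannot be told apart. The values below are log2 levels as deposited, replicate 1 before replicate 2, and each difference is shXBP1 minus shCtrl with its standard error from the fit over all probe sets.

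MT2A, the most widely expressed metallothionein of human tissues, read 13.51 and 13.41 in T47D shCtrl and 12.51 and 12.86 in T47D shXBP1. In MDA-MB-231 it read 13.93 and 13.81 with shCtrl and 14.04 and 13.92 with shXBP1. The T47D groups did not overlap, and the difference was -0.77 (SE 0.13), a 1.71-fold lower signal. In MDA-MB-231 the lower shXBP1 array (13.92) fell just under the higher control array (13.93), and the difference was 0.11 (SE 0.13). The order of the groups was thus MDA-MB-231 with either hairpin, then T47D shCtrl, then T47D shXBP1.

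MT1X, an isoform of the same cluster, was covered by 2 probe sets. On 208581_x_at it read 12.86 and 12.86 in T47D shCtrl, 11.93 and 12.29 in T47D shXBP1, 13.11 and 12.90 in MDA-MB-231 shCtrl, and 13.29 and 13.09 in MDA-MB-231 shXBP1. On this probe set the T47D difference was -0.75 (SE 0.15), or 1.68-fold lower, while the MDA-MB-231 groups overlapped (0.19, SE 0.15). On 204326_x_at the values were 12.59 and 12.64, then 11.83 and 12.16 in T47D, and 12.09 and 12.00, then 12.71 and 12.63 in MDA-MB-231. Here the 2 lines differed by the same size in opposite directions, -0.62 in T47D and 0.62 in MDA-MB-231 (SE 0.13 each), with no overlap in either line. The 2 probe sets of MT1X therefore gave the same T47D direction and different MDA-MB-231 sizes.

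MT1E on 216336_x_at read 9.99 and 10.06 in T47D shCtrl and 9.22 and 9.57 in T47D shXBP1. In MDA-MB-231 it read 10.02 and 9.94 with shCtrl and 10.89 and 10.61 with shXBP1. The control levels of the lines differed by only -0.04 (SE 0.15), and the hairpin groups lay apart on opposite sides of them, at -0.63 (SE 0.15) in T47D and 0.77 (SE 0.15) in MDA-MB-231. Its second probe set, 212859_x_at, read 8.54 and 8.40, then 7.82 and 7.99 in T47D, and 8.32 and 8.16, then 8.54 and 7.83 in MDA-MB-231. On it the T47D difference was -0.57 (SE 0.21) and the MDA-MB-231 replicates straddled the controls (-0.06, SE 0.21), so the higher MDA-MB-231 signal was seen on 1 of 2 MT1E probe sets.

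MT1F read 11.78 and 11.91 in T47D shCtrl and 10.87 and 11.15 in T47D shXBP1 on 217165_x_at. The same probe set read 11.25 and 11.25 in MDA-MB-231 shCtrl and 11.78 and 11.61 in MDA-MB-231 shXBP1. The groups did not overlap in either line, at -0.83 (SE 0.13, 1.78-fold lower) in T47D and 0.44 (SE 0.13, 1.36-fold higher) in MDA-MB-231. On 213629_x_at MT1F read 11.02 and 10.88, then 9.95 and 10.28 in T47D, and 8.79 and 8.60, then 8.86 and 8.94 in MDA-MB-231. The T47D difference was again -0.83 (SE 0.14), and the MDA-MB-231 difference was 0.21 (SE 0.14). The probe sets parted on the lines themselves: with shCtrl, MDA-MB-231 minus T47D was -0.59 (SE 0.13) on the first and -2.26 (SE 0.14, 4.78-fold lower) on the second.

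MT1H on 206461_x_at read 12.04 and 12.00, then 11.32 and 11.52 in T47D, a difference of -0.59 (SE 0.11). In MDA-MB-231 it read 12.28 and 12.21, then 12.50 and 12.35, a difference of 0.18 (SE 0.11). The groups were apart in both lines, narrowly so in MDA-MB-231 (12.35 against 12.28). MT1G on 204745_x_at read 11.93 and 11.92, then 11.17 and 11.61 in T47D (-0.53, SE 0.16), and 12.06 and 12.31, then 12.17 and 12.37 in MDA-MB-231 (0.09, SE 0.16), where the groups overlapped. Its other probe set, 210472_at, has no x_at suffix and stayed between 4.32 and 4.83 on all 8 arrays, below the median of all probe sets, with differences of -0.22 (SE 0.14) and -0.05.

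MT1M, on the single probe set 217546_at without the x_at suffix, split the lines. It read 7.58 and 8.39 in T47D shCtrl and 7.09 and 7.56 in T47D shXBP1, but 4.18 and 3.71 in MDA-MB-231 shCtrl and 4.04 and 4.21 in MDA-MB-231 shXBP1. With shCtrl, MDA-MB-231 minus T47D was -4.04 (SE 0.28), a 16.4-fold lower signal that is compressed because the MDA-MB-231 values lie below the median of all probe sets. The T47D replicates spread widely: the hairpin difference was -0.66 (SE 0.28), the nearest arrays of the groups read 7.56 and 7.58, and without shCtrl replicate 2 the difference was -0.25.

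**Figure D1:**
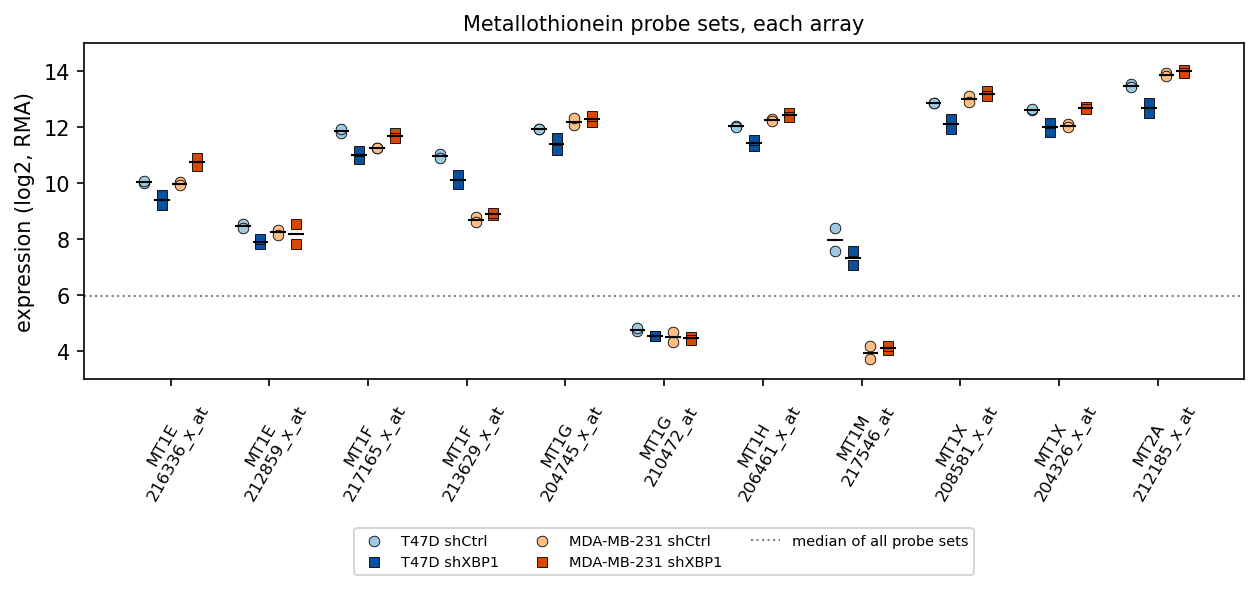
Log2 expression (vertical axis) of the 11 probe sets of the 7 metallothionein genes; points are the 8 arrays, coloured by line and hairpin, short bars are group means and the dotted line is the median of all probe sets (5.96). In T47D both shXBP1 arrays lie below both shCtrl arrays on all 11 probe sets, by least for MT1M (7.56 against 7.58), and MT1M lies between 3.71 and 4.21 in MDA-MB-231. At their brightest probe sets, 33.0% of all genes lie below in this way in T47D.

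By the rule used for every gene (limma, Benjamini-Hochberg adjusted p under 0.05 over 19775 genes), 6 of the 7 metallothionein genes were called lower in T47D, MT1M being the exception. Over all genes 13.5% were called lower there and 15.5% higher. In MDA-MB-231, 2 of 7 were called higher, MT1E and MT1F, against 10.6% of all genes, and 0 were called lower, against 6.68%. Both shXBP1 arrays lay below both controls for 7 of 7 genes in T47D, where 33.0% of all genes did so, and above both for 3 of 7 in MDA-MB-231 (MT1E, MT1F and MT1H), where 30.9% did so. The rule that chose the members used these contrasts, so nothing is read from the counts.

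The T47D shXBP1 arrays differed from each other in the metallothioneins. Replicate 2 was above replicate 1 on 11 of 11 probe sets, by a median of 0.33 log2 units, while the median over all probe sets was -6.8e-05. In the other groups replicate 2 was the higher on 5, 2 and 3 of 11. Without T47D shXBP1 replicate 1 the T47D differences were -0.60 for MT2A, -0.57 for MT1X, -0.70 for MT1F, -0.49 for MT1H, -0.45 for MT1E and -0.32 for MT1G, and the calls of MT1E and MT1G were lost. MT1G also lost its call without T47D shCtrl replicate 1 or without replicate 2, as MT1E did without T47D shCtrl replicate 2, and MT1M gained one without T47D shCtrl replicate 1, at -1.06. In MDA-MB-231 the call of MT1F was lost when any 1 of the 4 arrays of that line was left out, with differences of 0.35 to 0.53, and that of MT1E was lost without shXBP1 replicate 1 (0.63).

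MTF1, the zinc sensor, differed in T47D in the direction opposite to the metallothioneins. On 227150_at it read 7.24 and 7.55 with shCtrl and 8.68 and 8.48 with shXBP1 in T47D, a difference of 1.19 (SE 0.14, 2.28-fold). On the same probe set it read 4.72 and 4.91, then 6.55 and 6.47 in MDA-MB-231, a difference of 1.69 (SE 0.14, 3.24-fold) from control values below the median of all probe sets. On 205322_s_at the T47D values were 8.10 and 8.07, then 8.48 and 8.55 (0.43, SE 0.10), and the MDA-MB-231 values 6.90 and 7.02, then 7.65 and 7.59 (0.66, SE 0.10). On 205323_s_at they were 7.79 and 7.64, then 8.28 and 8.32 (0.59, SE 0.10), and 7.38 and 7.45, then 7.62 and 7.71 (0.25, SE 0.10). In MDA-MB-231 both shXBP1 arrays were above both controls on each of the 3 probe sets. There 30.9% of all genes were above in this way at their brightest probe set, and nothing is read from the separation. By the call rule, 15.5% of all genes were called higher in T47D and 10.6% in MDA-MB-231. The sizes of the MTF1 differences depended on the probe set and line. The 3.24-fold value, set against dim controls, is not an exact fold. At its brightest probe set MTF1 was called higher in both lines, and in T47D the call was lost without shXBP1 replicate 2, at 0.39. MTF1 RNA with shCtrl was lower in MDA-MB-231 than in T47D on all 3 probe sets, with differences of -0.30, -1.12 and -2.58.

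SLC30A1, the exporter that MTF1 induces when zinc is high, read 11.05 and 10.90, then 10.23 and 10.73 in T47D on 212907_at, a difference of -0.49 (SE 0.16). In MDA-MB-231 the same probe set read 11.87 and 11.75, then 11.61 and 11.55, a difference of -0.23 (SE 0.16). Both shXBP1 groups lay below their controls on it, and without T47D shXBP1 replicate 1 the T47D difference was -0.24. On 228181_at, however, SLC30A1 read 10.31 and 10.36, then 10.28 and 10.48 in T47D (0.04, SE 0.11), and 10.59 and 10.53, then 10.82 and 10.85 in MDA-MB-231 (0.28, SE 0.11). The third probe set, 242716_at, stayed between 4.21 and 4.88, below the median of all probe sets. SLC30A1 thus had no single direction over its probe sets, and it was not called in either line at its brightest one. In T47D it was called without shXBP1 replicate 2 (-0.74), and, at the same -0.49, with dim genes left out or with a trended robust variance.

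**Figure D2:**
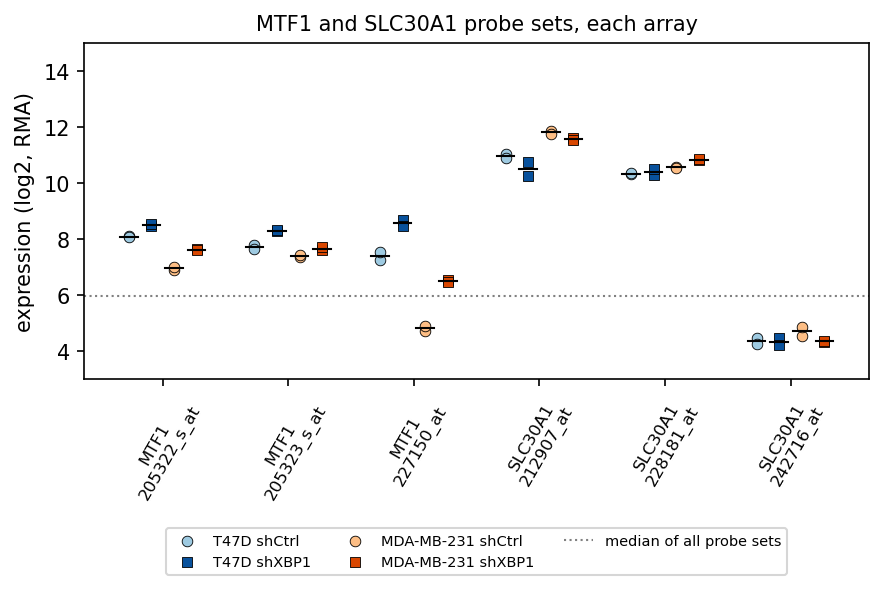
Log2 expression of each probe set of MTF1 and SLC30A1 with points for the 8 arrays coloured by line and hairpin, short bars for group means and a dotted line at the median of all probe sets. The shXBP1 means lie above the shCtrl means on all 3 MTF1 probe sets in both lines, while the 3 SLC30A1 probe sets differ in direction. In MDA-MB-231 both shXBP1 arrays lie above both controls on the MTF1 probe sets. At their brightest probe sets, 30.9% of all genes lie above in this way in MDA-MB-231.

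With the control hairpin, the lines differed in opposite ways across the members. MT2A was 0.41 (SE 0.13) higher in MDA-MB-231 than in T47D and SLC30A1 on 212907_at 0.83 (SE 0.16) higher, whereas MT1F, MT1M and MTF1 were lower at their brightest probe sets. These 5 of 9 were called, against 49.0% of all genes, so the share of members that differed between the lines was near that of all genes. Of the 11 metallothionein probe sets 4 were higher in MDA-MB-231 and 7 lower, and the MT1X difference was 0.14 on 208581_x_at and -0.56 on 204326_x_at.

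The difference between the hairpin effects of the lines (MDA-MB-231 minus T47D) was above 0 for all 9 members at their brightest probe sets, and for 15 of the 17 probe sets, the exceptions being 205323_s_at of MTF1 and 242716_at of SLC30A1. It was 1.40 for MT1E, 1.27 for MT1F, 0.94 for MT1X, 0.89 for MT2A, 0.77 for MT1H and 0.62 for MT1G. The calls for this difference covered 5 members (MT1E, MT1F, MT1X, MT2A and MT1H), where 13.0% of all genes were called in that direction and 24.8% in either. Among the metallothioneins outside the members, MT1HL1, an MT1H-like copy on chromosome 1 whose probe set is also of the x_at kind, fell in T47D by 0.78 (SE 0.12, limma adjusted p = 0.00178). Its values were 12.22 and 12.17, then 11.28 and 11.56 in T47D, and 12.50 and 12.40, then 12.68 and 12.53 in MDA-MB-231 (0.16, adjusted p = 0.424). Its difference between the lines was 0.94 (SE 0.17, adjusted p = 0.00529). The MT1HL1 probe set can also read the members' messages. Its p-values are therefore not independent of the values on which the members were chosen. MT3 and MT4 were measured and not called in either line, and the other 9 genes of that list had no single-symbol probe set.

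**Figure D3:**
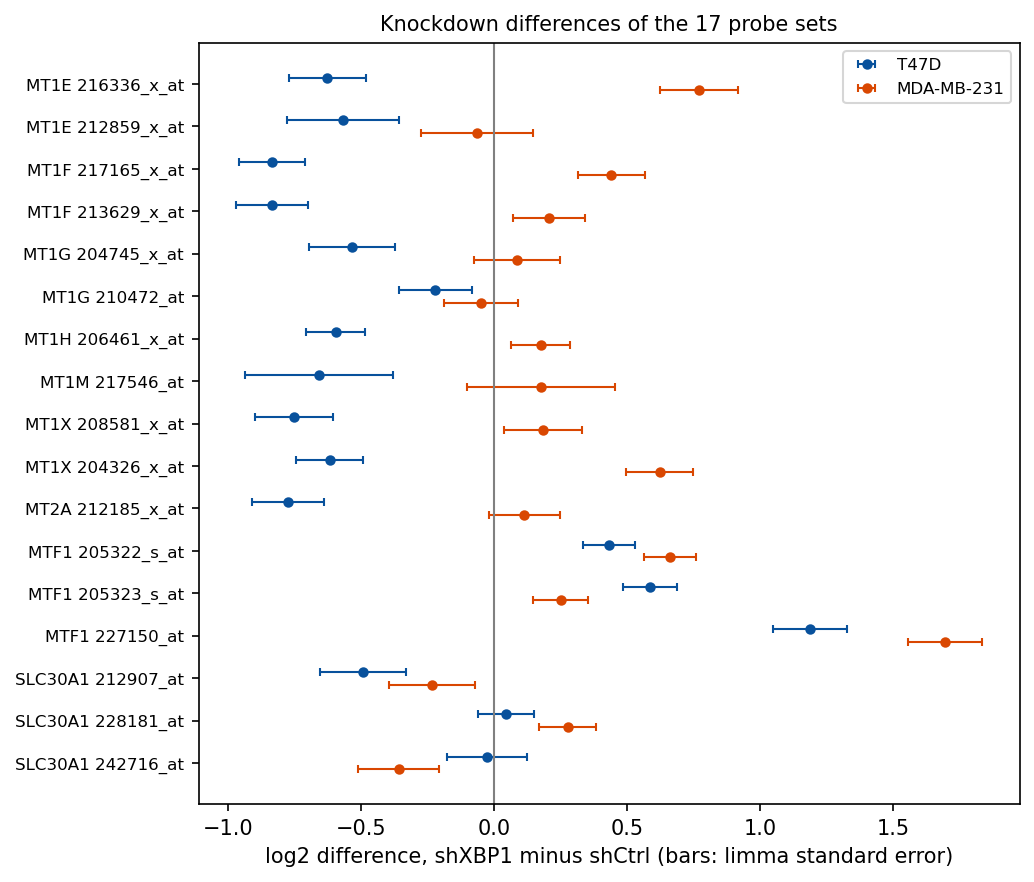
Log2 difference, shXBP1 minus shCtrl, of each of the 17 probe sets of the members in T47D and in MDA-MB-231; bars are standard errors from the fit over all probe sets. All 11 metallothionein probe sets lie below 0 in T47D and 9 of them above 0 in MDA-MB-231, and the 3 MTF1 probe sets lie above 0 in both.

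The members' profiles over the 8 arrays were compared after subtracting each probe set's mean, by the root mean square (RMS) difference in log2 units. MT1H and MT1X differed by 0.0776, MT1X and MT2A by 0.129, and MT2A and SLC30A1 by 0.173, while MTF1 was 0.70 to 1.40 from each of the others. MT1M was the most distant member, at 1.40 from MTF1 and 1.85 to 2.31 from the other members. The 5 genes nearest to MT1X were MT1HL1 (0.0667), MT1H (0.0776), DONSON (0.0924), TPX2 (0.107) and MRPL40 (0.110). Nearest to MT2A were MT1HL1 (0.0720), PTTG1 (0.0899), DONSON (0.0990), PRMT5 (0.103) and PRDX2 (0.107). Nearest to SLC30A1 were NOL4L (0.0807), CEP162 (0.123), UBE2T (0.129), NDUFAF6 (0.130) and PRDX3 (0.132). Apart from the metallothioneins, none of these genes is on the zinc, copper or stress lists.

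More of the other zinc transporters fell than rose in T47D. Of 23 SLC30 and SLC39 genes, 3 rose, 10 fell and 10 were not called. Their median log2 difference was -0.20, against -0.02 over all genes. Of all genes 15.5% were called higher there and 13.5% lower, 29.1% in either direction. In MDA-MB-231, 6 rose, 0 fell and 17 were not called at their brightest probe sets, with 8 at an unadjusted p under 0.05 by limma. The median there was 0.06, against 0.03 over all genes. Of all genes 10.6% were called higher there and 6.68% lower, 17.2% in either direction. Most SLC30 proteins move zinc from the cytosol out of the cell or into organelles. Of the 9 SLC30 genes, 2 rose and 4 fell in T47D while 2 rose in MDA-MB-231. Among those 4, SLC30A8 read 4.92 and 4.92, then 4.61 and 4.53 in T47D (-0.35, adjusted p = 0.0468). These values lie below the median of all probe sets, so its call is uncertain. The SLC39 (ZIP) proteins bring zinc into the cytosol, and 1 of 14 rose and 6 fell in T47D while 4 rose in MDA-MB-231.

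SLC39A14, a zinc, iron and manganese importer, had the largest fall of the list in T47D. Its T47D values were 10.54 and 10.53 under the control and 8.94 and 8.89 under the XBP1 hairpin, that is -1.62 (SE 0.09, adjusted p = 3.37e-05). In MDA-MB-231 it read 11.37 and 11.24, then 11.33 and 11.45 (0.09, adjusted p = 0.586). The difference between the lines was 1.71 (SE 0.13, adjusted p = 0.000231), though over the mean of all its probe sets the T47D change was only -0.46 and the difference between the lines 0.50. SLC39A6, an importer known as an oestrogen-responsive gene, fell in T47D by 0.90 (SE 0.09, adjusted p = 0.000279). In MDA-MB-231 SLC39A6 was not called at its brightest probe set (-0.21, adjusted p = 0.162). It was called lower there over the mean of its probe sets (-0.55, adjusted p = 0.00439) and with a trended robust variance (-0.21, adjusted p = 0.0124). SLC30A5, which loads zinc into the early secretory pathway, fell in T47D by 0.85 (SE 0.08, adjusted p = 0.000255), and by 0.54 over the mean of its probe sets.

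Of these transporters, 3 fell in T47D and rose in MDA-MB-231. SLC39A11 read 10.33 and 10.23, then 9.41 and 9.48 in T47D (-0.84, SE 0.11, adjusted p = 0.00114), and 6.77 and 6.50, then 7.37 and 7.50 in MDA-MB-231 (0.80, SE 0.11, adjusted p = 0.00315). SLC39A7, which releases zinc from the endoplasmic reticulum, read 9.86 and 9.94, then 9.28 and 9.31 in T47D (-0.60, SE 0.08, adjusted p = 0.00135), and 9.33 and 9.26, then 9.79 and 9.76 in MDA-MB-231 (0.48, SE 0.08, adjusted p = 0.00772). SLC30A9, the mitochondrial zinc transporter, fell by 0.45 (adjusted p = 0.00506) in T47D and rose by 0.39 (adjusted p = 0.0167) in MDA-MB-231, where the call was lost without shCtrl replicate 1, shCtrl replicate 2 or shXBP1 replicate 1 (0.34 to 0.41). For each of these 3 the difference between the lines was itself called.

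Others rose in 1 or both lines. SLC30A6, the partner of SLC30A5, rose by 0.91 (SE 0.11, adjusted p = 0.000715) in T47D and by 0.58 (adjusted p = 0.0106) in MDA-MB-231. Over the mean of its probe sets these were 0.44 and 0.23, the second no longer called, and the MDA-MB-231 call was also lost without shCtrl replicate 2 (0.47) or shXBP1 replicate 2 (0.52). SLC30A7, a Golgi zinc transporter, rose by 0.90 (SE 0.12, adjusted p = 0.000902) in T47D and was not called in MDA-MB-231 (-0.06). SLC39A8, a zinc and manganese importer, rose by 0.70 (adjusted p = 0.0011) in T47D and by 0.53 (adjusted p = 0.00769) in MDA-MB-231, and neither call held over the mean of its probe sets (0.14 and 0.20). SLC39A1, an importer of the cell surface, rose by 0.73 in MDA-MB-231 (adjusted p = 0.00211) and was not called in T47D (-0.06).

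**Figure D4:**
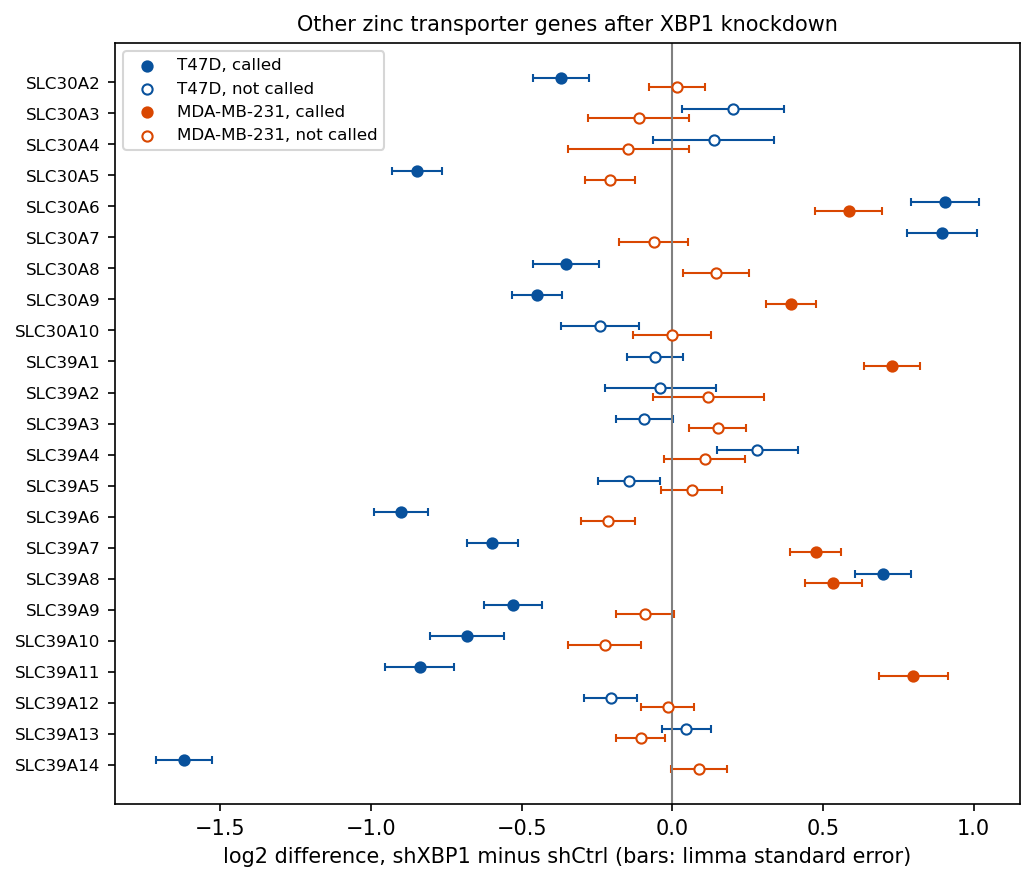
Log2 difference, shXBP1 minus shCtrl, of the 23 other SLC30 and SLC39 genes in T47D and in MDA-MB-231, with standard errors as bars and filled points for called genes. SLC39A14 lies lowest in T47D at -1.62, and SLC39A11 lies at -0.84 in T47D and 0.80 in MDA-MB-231.

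Genes that share regulators or ligands with the metallothioneins gave mixed directions. Over all genes 29.1% were called in T47D and 17.2% in MDA-MB-231. The counts of called genes on these short lists stand beside those shares, and no response of a list is read from them. Of 10 copper handling genes, 1 rose and 1 fell in T47D, where SCO2, a cytochrome oxidase assembly factor, rose by 0.30 (adjusted p = 0.0295, lost without any 1 of the 4 T47D arrays) and ATOX1, the copper chaperone of the secretory pathway, fell by 0.61 (adjusted p = 0.00321). In MDA-MB-231, 2 rose: SLC31A2, a copper transporter, read 6.84 and 7.35, then 8.43 and 8.45 (1.35, SE 0.16, adjusted p = 0.00137), and SCO1, a relative of SCO2, rose by 0.74 (adjusted p = 0.00369). Of 6 other reported MTF1 targets, 2 rose in T47D, CEBPA by 1.09 and SLC40A1 by 0.97, and over the mean of its probe sets SLC40A1 was not called (0.18). In MDA-MB-231 SLC40A1 read 3.88 to 4.12 on all 4 arrays, below the median of all probe sets, so no change can be read there. In MDA-MB-231 CEBPA rose by 0.51, a call lost without shCtrl replicate 2 (0.37) or shXBP1 replicate 1 (0.45), and GCLC fell by 0.52. The medians of these 2 lists were -0.19 and 0.12 in T47D, and 0.07 and 0.06 in MDA-MB-231.

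Glucocorticoids and oxidants also induce metallothioneins. The counts of called genes below stand beside 29.1% of all genes called in T47D and 17.2% in MDA-MB-231. Of the 7 glucocorticoid receptor and response genes measured, 3 rose in T47D (SGK1 by 2.08, NR3C1 by 1.13 and DUSP1 by 0.93) and TSC22D3 fell by 0.95. The T47D controls of SGK1 read 5.02 and 5.58, below the median of all probe sets, so the size of its rise is not exact. In MDA-MB-231 GLUL and TSC22D3 rose, by 0.65 and 0.51, and NR3C1 and DUSP1 fell, by 0.63 and 0.41. Of the 8 genes of the NFE2L2 oxidative stress list, 3 rose in T47D (NFE2L2 by 0.99, SLC7A11 by 0.92 and OSGIN1 by 0.64) and GCLM and NQO1 fell, by 0.57 and 0.51. In MDA-MB-231 HMOX1, haem oxygenase, rose by 1.24 (SE 0.29, adjusted p = 0.0243), and NQO1, TXNRD1 and NFE2L2 fell, by 0.56, 0.55 and 0.35. The HMOX1 arrays read 8.37 and 8.62 with shCtrl and 10.24 and 9.23 with shXBP1. The HMOX1 difference was 0.74 without shXBP1 replicate 1 and 1.75 without shXBP1 replicate 2, and the call was lost without shCtrl replicate 1 or 2 (1.11 and 1.37). DUSP1 lost its MDA-MB-231 call without shCtrl replicate 2 or shXBP1 replicate 1, and NFE2L2 lost its own without any 1 of the 4 MDA-MB-231 arrays or without either T47D shXBP1 array. The list medians were 0.22 and 0.33 in T47D and 0.08 and -0.28 in MDA-MB-231, for the glucocorticoid and NFE2L2 lists in turn. Over the mean of all probe sets the calls of GCLM in T47D and of GLUL, TSC22D3 and TXNRD1 in MDA-MB-231 were lost. By that mean the T47D values of TSC22D3, DUSP1, NFE2L2, SLC7A11 and NQO1 were -0.52, 0.52, 0.52, 0.53 and -0.86, and GCLC in MDA-MB-231 was -0.34. The part of any of these genes in the metallothionein differences was not tested.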

How the data were processed

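The authors deposited log2 expression values per probe set, made with RMA in affy 1.30.0 per the submitters' processing notes. RMA corrects background, quantile-normalizes the arrays and combines the probes of each set, and it compresses differences at dim levels. The sources used here do not say which arrays were normalized in one run. Values ran from 2.75 to 15.6, array medians from 5.87 to 5.91, and replicates correlated at 0.996 to 0.998.

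Group and replicate come from the labels. Of 54675 probe sets, 41091 had 1 gene symbol in the platform table, and the 1801 with several were not used. Each of 19775 genes was represented by its brightest probe set. Both limma 3.58.1 fits (lmFit and eBayes, R 4.3.3) took the 4 groups together: one over genes, adjusted by Benjamini-Hochberg, two-sided, called at adjusted p under 0.05, and one over the 41091 probe sets for the members' standard errors. Precision is limited by the number of arrays: the median standard error of a hairpin difference was 0.119 (log2), and exact permutation of 2 against 2 arrays gives no p under 0.333.

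Named are all members, XBP1 and up to 4 called genes of each list per line with the largest difference. Also named are the 5 genes nearest in profile to MT1X, MT2A and SLC30A1. MT3, MT4 and SLC30A8 were named after their values were seen. The members and lists were chosen with earlier results of these data known. Replicate numbers do not pair the samples: deviations of same-numbered arrays from their group means correlated at -0.07 to 0.04. The code was tested on simulated data. Alternatives were a dim-gene filter, the mean over probe sets, repeated quantile normalization, median centring, trended robust variance, only the compared arrays, a replicate block and each array left out.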

Additional observations from a re-analysis of the deposited data

Results flagged for a closer look

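For 3 members both shXBP1 arrays lay below both controls in T47D and above both in MDA-MB-231. Over all genes 33.0% lay below in T47D and 30.9% above in MDA-MB-231. The share with both is not given, so nothing is read from the count. The hairpin effect in MDA-MB-231 minus that in T47D was 1.40 for MT1E, 1.27 for MT1F and 0.77 for MT1H on the log2 scale. The members were chosen with these results known, so these values are a description and no p is given for them.

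Among the listed genes that are not members, the same difference between the lines passed limma's test (Benjamini-Hochberg adjusted p under 0.05, 2 arrays per group) for 25 of the 57 measured. For zinc it was 0.94 for MT1HL1 (adjusted p = 0.00529), 1.71 for SLC39A14 (0.000231), 1.64 for SLC39A11 (0.000503), 1.07 for SLC39A7 (0.000790), 0.84 for SLC30A9 (0.00200), 0.79 for SLC39A1 (0.00450), 0.69 for SLC39A6 (0.00670), 0.64 for SLC30A5 (0.00636) and -0.96 for SLC30A7 (0.00475). The MT1HL1 probe set can also read the members' messages, so its test is not independent of them. For copper the difference between the lines was 1.3 for SLC31A2 (0.00482), 0.93 for SCO1 (0.00416) and 0.68 for ATOX1 (0.0124). Of the other MTF1 targets, CEBPA gave -0.58 (0.0341), SLC40A1 -1.10 (0.00168) and GCLC -0.61 (0.00924). Of the glucocorticoid list, SGK1 gave -2.16 (0.000752), NR3C1 -1.76 (0.000296), DUSP1 -1.34 (0.000352), TSC22D3 1.45 (0.000337) and GLUL 0.68 (0.0132). Of the NFE2L2 list, NFE2L2 gave -1.34 (0.000437), SLC7A11 -1.29 (0.00113), TXNRD1 -0.70 (0.00552) and GCLM 0.55 (0.0372). Over all genes 24.8% passed this test. The genes named had been picked for the largest called hairpin differences of their lists. CCS, a copper handling gene not so picked, also passed (0.46, adjusted p = 0.0306). With 1 array left out, the CEBPA call was lost in 7 of 8 refits, that of GCLM in 6 of 8, and those of ATOX1 and GLUL in 1 of 8 each. With the mean over probe sets the calls of SLC40A1 (-0.16, adjusted p = 0.607), GLUL (0.24, adjusted p = 0.262) and GCLM (-0.10) were lost. By that mean the difference was 0.50 for SLC39A14, 0.42 for SLC30A5, 0.45 for SLC39A6, 0.60 for TSC22D3, -0.86 for NFE2L2 and -0.39 for TXNRD1. SLC40A1 lay below the median of all probe sets on every MDA-MB-231 array, so no change can be read for it in that line. SGK1 lay below that median on both T47D shCtrl arrays, so the size of its difference is not exact.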

How the results depend on the processing

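Over all alternatives, 172 recomputed counts of calls stayed within 1.5 times their main value and 5 did not. Those 5 lay in MDA-MB-231: genes called numbered 3410, but 1897 when only the 4 arrays of that line were fitted and 2063 to 2931 when 1 array was left out (2063 without shCtrl replicate 1, 2152 without shXBP1 replicate 1), and members called numbered 3, but 1 with the mean over probe sets and 1 to 3 with 1 array left out (1 without shXBP1 replicate 1). Of the recomputed differences that were called as reported, 1 changed sign: the GCLM difference between the lines, 0.55, was -0.10 with the mean over probe sets; the cause was not tested. Another 16 recomputed differences that were not called as reported changed sign, among them MT1G (-0.04) and MT1M (-0.06) in MDA-MB-231 and MT1X between the lines (-0.21). With the replicate number as a block, called members numbered 7 in T47D and 2 in MDA-MB-231, and genes called 5421 and 2941. MT1M gave no value under the dim-gene filter. With 2 arrays per group, single calls of MT1E, MT1F and MT1G rest on individual arrays. The MDA-MB-231 calls of MT1E and MT1F also rest on the choice of probe set. With the mean over probe sets, MT1E (0.35) and MT1F (0.32) were no longer called in that line, and MTF1 was the 1 member called.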
